A study of Mus musculus with 9 samples.

Results

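The genes of respiratory complex I whose symbols begin with Nduf were followed in MC38 cells, a mouse colon carcinoma line, after treatment with Cu-Cys or Cadict. The symbol alone chose the members, and 51 of the 16509 genes in the deposited table carried it. They comprised 37 structural subunits and 8 assembly factors (Ndufaf1 to Ndufaf8), and the comparison of these classes is the subject of what follows. The other 6 were Ndufa4, whose protein is now assigned to complex IV, its paralog Ndufa4l2, and 4 gene copies (Ndufab1-ps, Ndufb4b, Ndufb4c and Ndufs6b). Of the 51 genes, 47 passed the filter on low counts, among them all 37 subunits and all 8 assembly factors. Ndufa4l2, Ndufab1-ps, Ndufb4b and Ndufs6b did not, and each lay at no more than 0.255 CPM in any library, where CPM is the count divided by the TMM-scaled library size and set to a common depth.

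Messenger RNA was sequenced from 3 libraries each of Ctrl, Cu-Cys and Cadict cells, to learn how the transcriptome differs after a copper and cystine treatment and after the complete nanotherapeutic. Ctrl cells received DMSO by the sample labels and PBS by the study's text. Cu-Cys cells received copper chloride with cystine, and Cadict cells received an assembly of copper, cystine and glucose oxidase carrying GE11, a peptide that binds the epidermal growth factor receptor. All 9 libraries are of the same unmodified line, and no dose or time is given for them. The study's text describes its replicates in general as biological, while the labels do not say whether these libraries came from separate cultures, and the p-values measure the spread between the libraries as deposited.

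Complex I takes electrons from NADH and passes them to ubiquinone while pumping protons across the inner mitochondrial membrane. A peripheral arm holds the flavin, the iron-sulfur clusters and the ubiquinone site, and a membrane arm holds the pumps, whose core subunits are encoded by mitochondrial DNA and were not analysed here. Nuclear genes encode the remaining core subunits, a shell of accessory subunits and the assembly factors, which help to build the enzyme but are not part of the finished complex.

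The promoters of 4 members are shown because 3 of them belong to the flavoprotein subunits, which were lower after Cadict, and the fourth to Ndufs4, which was higher. The sequences are from RefSeq (GRCm38.p6) and run from 250 bases before to 50 bases after the annotated start. They lie at chr19:4012706-4013005 (minus strand), chr17:66101510-66101809 (minus strand), chr17:31519865-31520164 (plus strand) and chr13:114388045-114388344 (minus strand). Capitals mark CCGGAA, the core letters bound by ETS factors such as GABP, or AAGATGGC, the letters bound by YY1, on either strand.
Ndufv1: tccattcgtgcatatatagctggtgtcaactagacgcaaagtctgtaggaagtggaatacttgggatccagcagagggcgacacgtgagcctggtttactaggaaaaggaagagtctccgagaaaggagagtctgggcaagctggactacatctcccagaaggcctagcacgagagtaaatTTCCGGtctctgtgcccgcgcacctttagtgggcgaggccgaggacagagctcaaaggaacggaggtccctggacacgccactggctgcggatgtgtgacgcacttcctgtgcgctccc
Ndufv2: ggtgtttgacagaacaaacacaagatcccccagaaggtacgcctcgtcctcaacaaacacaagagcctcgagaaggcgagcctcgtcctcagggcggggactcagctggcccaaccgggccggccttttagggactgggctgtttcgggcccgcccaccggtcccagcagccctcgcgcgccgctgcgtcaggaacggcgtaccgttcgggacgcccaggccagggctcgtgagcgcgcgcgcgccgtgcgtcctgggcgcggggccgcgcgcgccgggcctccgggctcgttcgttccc
Ndufv3: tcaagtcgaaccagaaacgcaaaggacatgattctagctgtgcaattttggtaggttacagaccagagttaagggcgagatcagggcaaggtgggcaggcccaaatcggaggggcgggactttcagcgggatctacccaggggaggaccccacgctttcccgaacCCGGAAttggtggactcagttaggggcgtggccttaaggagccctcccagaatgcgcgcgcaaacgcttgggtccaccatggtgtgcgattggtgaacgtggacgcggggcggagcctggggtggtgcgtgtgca
Ndufs4: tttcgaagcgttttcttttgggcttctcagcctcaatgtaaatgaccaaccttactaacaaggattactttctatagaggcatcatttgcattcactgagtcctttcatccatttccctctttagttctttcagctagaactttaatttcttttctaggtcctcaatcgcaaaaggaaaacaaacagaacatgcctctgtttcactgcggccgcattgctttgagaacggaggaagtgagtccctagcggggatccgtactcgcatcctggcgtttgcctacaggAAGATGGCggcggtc

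Ndufv1 and Ndufv3 held the ETS letters, Ndufs4 held the YY1 letters and Ndufv2 held neither. Promoter windows were found for 42 of the 51 members, which had 44 windows in all. CCGGAA or its reverse complement was in 12 of these 44 windows (27.3%) and in 14.9% of all 32851 mouse windows of the same length. AAGATGGC was in 8 windows (18.2%) and in 2.75% of all windows. GCATGCGC, the letters bound by NRF1, was in 5 windows (11.4%) and in 2.71% of all windows. In 3 windows (Ndufa9, Ndufaf8 and Ndufs7) both the ETS and the YY1 letters were found, at places that shared no base. The ETS letters were present in genes that were higher after Cadict with TMM scaling (Ndufa9, Ndufa10, Ndufb6, Ndufb7, Ndufc2, Ndufs3, Ndufs7, Ndufs8). Of these, Ndufa9, Ndufb7 and Ndufs7 were lower when libraries were scaled by their totals. The same letters were present in genes that were lower with TMM scaling (Ndufv1, Ndufv3, Ndufaf1) and in Ndufaf8, which was called neither way. Such matches describe the letters in these windows and are not evidence of binding.

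The libraries summed to 17905771 to 18293056 counts. A gene with no count could still have had 3, or 0.13 to 0.261 CPM, a limit for counting error alone. The top 100 genes of each library held 17.2% to 18.2% of its counts with Ctrl or Cu-Cys and 29.8% to 31.1% with Cadict. The TMM scaling factors were 1.21 to 1.27 in the first 2 groups and 0.64 to 0.67 in the third, so the direction of many members after Cadict depends on the scaling, as given below. Cadict replicate 2 stood apart from the other Cadict libraries, with a chi-square per degree of freedom of 12.9 and 20.3 against them, where those libraries gave 3.33 against each other. All 37 subunits were highest in that library among the Cadict libraries, at a median of 1.38 times the mean of the other 2, whereas the median over all genes tested was 0.998 times. Results for Cadict are therefore also given without it. The mesenchymal marker Vim averaged 2060 CPM in Ctrl cells, whereas of the epithelial markers Epcam, Krt8 and Krt18 lay at or near 0 in Ctrl and Cu-Cys libraries, although MC38 is a carcinoma line. The other epithelial markers, Cdh1 and Krt19, averaged 4.86 and 1.05 CPM in Ctrl and 12.8 and 10.8 CPM in Cadict cells. The summed level of the 5 epithelial markers was 5.28 to 6.79 CPM in Ctrl, 3.83 to 4.38 in Cu-Cys and 23.6 to 25.7 in Cadict libraries. For the 2 leukocyte markers measured (Ptprc and Cd68) it was 3.05 to 3.24, 2.33 to 2.72 and 15.6 to 18.2 CPM. Most of the latter was Cd68, while Ptprc stayed at or below 0.252 CPM. The 4 mesenchymal markers summed to 2620 to 2670, 2370 to 2470 and 1990 to 2360 CPM, within which Col1a2 averaged 568, 315 and 124 CPM, and the 2 endothelial markers to at most 2.44 CPM. The part of these marker differences in the results was not tested. Since these are bulk libraries, less RNA per cell and fewer cells cannot be told apart.

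With TMM scaling, most structural subunits were higher in Cadict than in Ctrl cells, the flavoprotein subunits were lower, and the assembly factors went in both directions. The flavoprotein subunits (Ndufv1, Ndufv2 and Ndufv3) were set apart as a group only after their values were seen. Of the 37 subunits, 32 rose and 3 fell at an adjusted p of at most 0.05 (edgeR, quasi-likelihood test, Benjamini-Hochberg method over the 11949 genes tested). The backgrounds for these counts were 40.6% of all genes tested called higher and 47.1% called lower. Short genes, 24 of the subunits among them, were called higher more often, as given below with transcript length. At a 2-fold change with an adjusted p of at most 0.001, 18 subunits were higher and 1 lower, where 20.7% and 27.1% of all genes tested were. The median log2 fold change was 0.99 over the subunits, with quartiles of 0.55 and 1.3, and -0.13 over all genes tested. Of the 8 assembly factors, 1 rose and 3 fell, a number that fell no greater than the share among all genes, and their values ranged from -1.74 to 1.57 around a median of 0.02. The medians of the classes thus differed by 0.97 on the log2 scale. Without Cadict replicate 2, 31 subunits rose and 4 fell, the subunit median was 0.81, 13 were at least 2-fold higher at the stricter threshold, and the classes differed by 0.91.

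**Figure D1:**
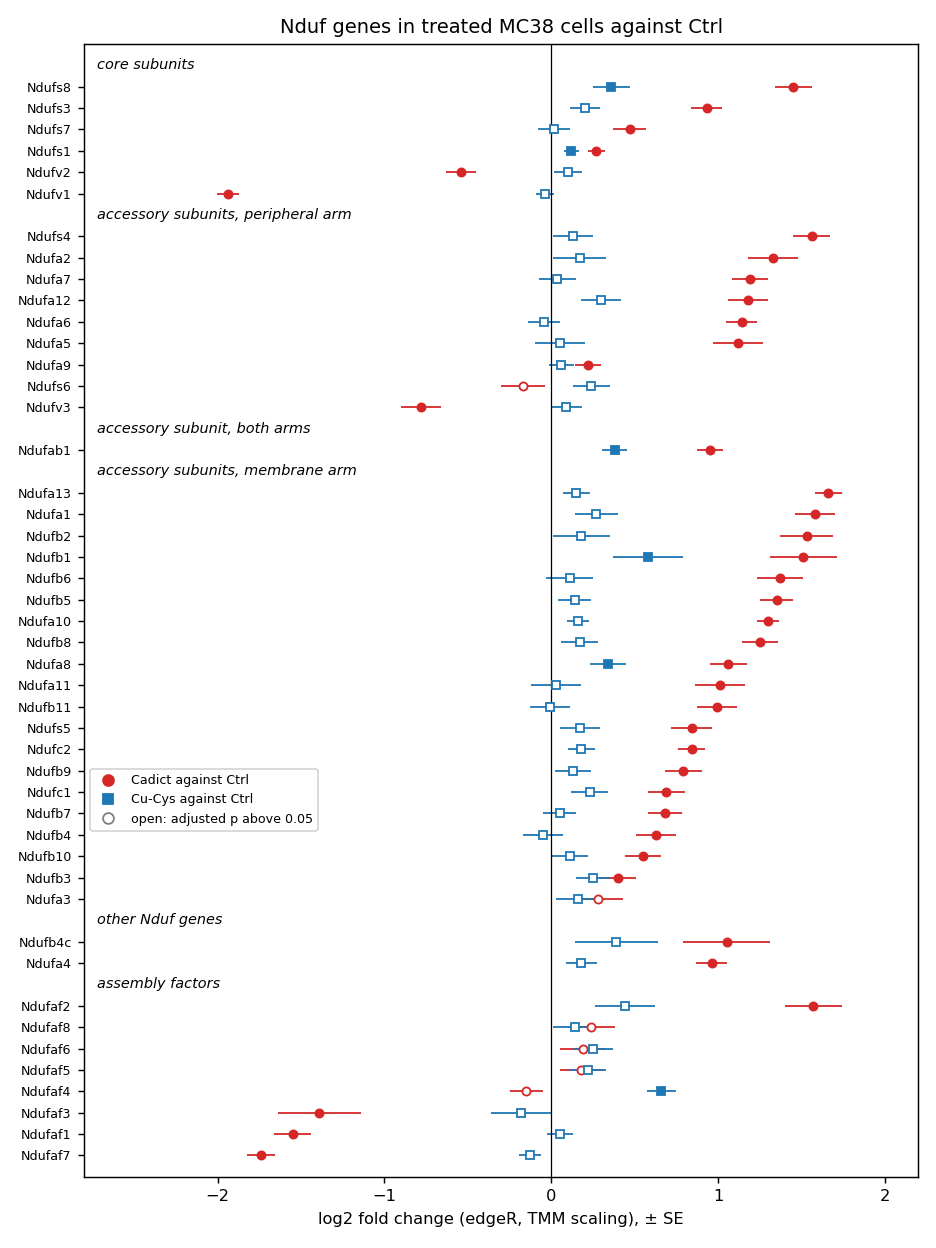
Log2 fold change (x axis) of tested Nduf genes (y axis, grouped by class) in Cadict against Ctrl (circles) and Cu-Cys against Ctrl (squares), with the SE as bars and open symbols for an adjusted p above 0.05. With TMM scaling 31 of the 36 subunits drawn lie to the right of 0 as filled circles, and 3 of the 8 assembly factors lie beyond -1. Of the 29 named genes 14 keep their side under every scaling and other alternative tried, Ndufaf4 and Ndufs6 among them as open circles. For genes to the left of 0 that is no check, since library totals, FPKM and TPM move the median of all genes down.

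The direction of the class as a whole depended on the scaling. As a share of all counts, the 37 subunits took 0.163% to 0.167% in Ctrl, 0.166% to 0.173% in Cu-Cys and 0.135% to 0.176% in Cadict libraries, so that they did not gain as a fraction of what was sequenced. The 8 assembly factors took 0.0108% to 0.0114%, 0.012% to 0.0127% and 0.00446% to 0.00579%, and here the Cadict libraries lay below all others. When libraries were scaled by their totals, 12 subunits were higher and 13 lower after Cadict, and 7 assembly factors were lower. Of all 11949 genes tested, 2161 were then called higher and 8730 lower. On that scale the median over all genes tested was -1.08 in place of -0.13, a shift of -0.95, and of all calls 19.8% were higher in place of 46.3%. Relative to the median of all genes with TMM, the subunits stood at 1.11 and 33 of the 37 lay above it, and the assembly factors stood at 0.15, with 4 above and 4 below. Rescaling whole libraries moves all genes by about the same amount, so these distances and the difference between the class medians are nearly fixed by construction and their agreement between scalings is no check on them. Of the 29 named genes, 14 kept their sign through all 19 alternatives tried, most of which also used TMM. Ndufaf4 and Ndufs6 were among the 14, although neither passed the threshold in the main fit. All 3 flavoprotein subunits and Ndufaf1, Ndufaf3 and Ndufaf7 stayed lower and past the threshold. Library totals, FPKM and TPM shifted the median of all genes by -0.65 to -1.26, and DESeq2 size factors by only 0.12. A gene well below 0 with TMM could therefore hardly turn, and its kept sign is no check. Ndufa13 and Ndufs4 stayed higher and past the threshold in all 19.

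**Figure D2:**
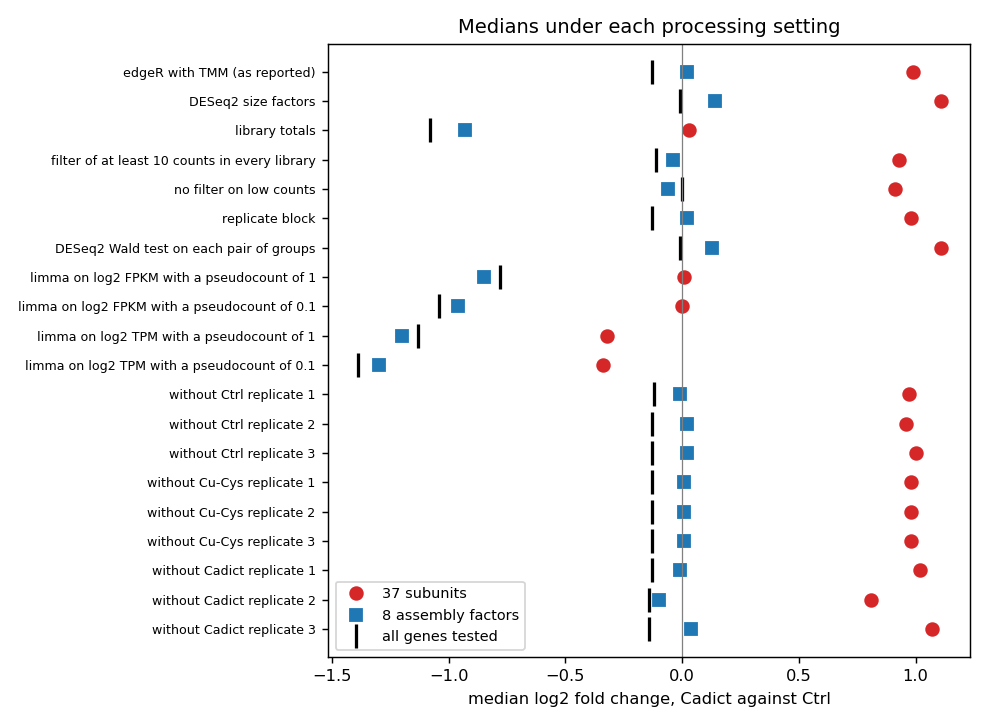
Median log2 fold change in Cadict against Ctrl (x axis) of the 37 subunits (circles), the 8 assembly factors (squares) and all genes tested (bars) under each processing setting (y axis). Library totals, FPKM and TPM move all 3 medians to the left, so that the subunit median is 0.03 with library totals and -0.32 with TPM and a pseudocount of 1, while the distance between the classes, which a rescaling of whole libraries can hardly change, lies between 0.86 and 1.03.

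The flavoprotein subunits form the tip of the peripheral arm where NADH is oxidised. Ndufv1 (Entrez 17995), which binds NADH and the flavin mononucleotide, was measured at 98.5, 100 and 102 CPM in Ctrl, at 104, 92.7 and 96.5 CPM in Cu-Cys and at 24.7, 28.2 and 25.5 CPM in Cadict libraries. All 3 Cadict libraries lay far below the other 6, and this was the lowest log2 fold change among the members, at -1.94 ± 0.066 (SE; adjusted p = 2.7e-13, edgeR). Ndufv2 (Entrez 72900), its iron-sulfur partner, was at 55.7, 54.5 and 53.3 CPM in Ctrl, at 57.3, 58.9 and 58.7 CPM in Cu-Cys and at 35.3, 45.4 and 32.1 CPM in Cadict libraries. It fell by 0.54 on the log2 scale (SE 0.09, adjusted p = 4.3e-05), with no overlap between Cadict and the other groups. Ndufv3 (Entrez 78330), a small accessory protein of the same module that was named after its values were seen, was at 19.8, 18.1 and 19.4 CPM in Ctrl, at 19.7, 20.9 and 20.4 CPM in Cu-Cys and at 10.5, 13.9 and 8.98 CPM in Cadict libraries. It fell by 0.78 on the log2 scale (SE 0.12, adjusted p = 1.0e-05). Without Cadict replicate 2 the log2 fold changes of Ndufv1, Ndufv2 and Ndufv3 were -2.0, -0.69 and -0.98. None of the 50-base stretches of Ndufv1 or Ndufv2 transcripts, and 0.701% of those of Ndufv3, occurred in another annotated gene.

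Ratios within a library do not depend on its scaling. The log2 ratio of Ndufv1 to Ndufs1 counts was 0.31 to 0.38 in Ctrl, 0.1 to 0.26 in Cu-Cys and -1.9 to -1.79 in Cadict libraries. For Ndufv2 against Ndufs1 it was -0.58 to -0.5, -0.6 to -0.51 and -1.56 to -1.1. For Ndufv3 against Ndufs1 it was -2.09 to -2.0, -2.14 to -2.04 and -3.4 to -2.8. In each case the Cadict libraries lay below the other 6, whereas the ratio of Ndufs8 to Ndufs1 went the other way, from between -1.59 and -1.34 in Ctrl to between -0.52 and -0.03 in Cadict libraries. These pairs were chosen after their values were seen and are given with no test.

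The other core subunits of the peripheral arm carry most of the iron-sulfur clusters and the ubiquinone site. Ndufs1 (Entrez 227197), the largest subunit of complex I and a neighbour of Ndufv1, was at 79.2, 77 and 79.7 CPM in Ctrl, at 86.7, 86.4 and 83.9 CPM in Cu-Cys and at 92.3, 97.4 and 94.9 CPM in Cadict libraries. The 3 groups did not overlap, and Ndufs1 rose by a log2 fold change of 0.27 ± 0.049 (adjusted p = 8.5e-05) in Cadict cells, a direction that turned under library totals, FPKM and TPM. Of its exons, 6.16% overlap Eef1b2 or Ino80dos on the opposite strand, and Eef1b2 averaged 398 CPM in Ctrl and 1900 CPM in Cadict cells. The part of such reads in the value of Ndufs1, and in the ratios to it, was not tested. Ndufs8 (Entrez 225887), an iron-sulfur subunit close to the ubiquinone site, was at 28.8, 30.4 and 26.5 CPM in Ctrl, at 35.7, 37.2 and 36.9 CPM in Cu-Cys and at 72.3, 95.3 and 66.2 CPM in Cadict libraries. Its Cadict libraries lay above the others, with a log2 fold change of 1.45 ± 0.11 (adjusted p = 2.3e-09), and it was higher under every alternative tried, although not past the threshold with TPM. Ndufs3, a scaffold of the ubiquinone module, had a log2 fold change of 0.93 ± 0.092 and Ndufs7, which carries the last iron-sulfur cluster before ubiquinone, one of 0.47 ± 0.099, with adjusted p of 1.1e-07 and 3.6e-04, and both turned under library totals, FPKM and TPM. Of the 6 core subunits described here, then, 4 rose and 2 fell with TMM scaling, and their median was 0.37.

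**Figure D3:**
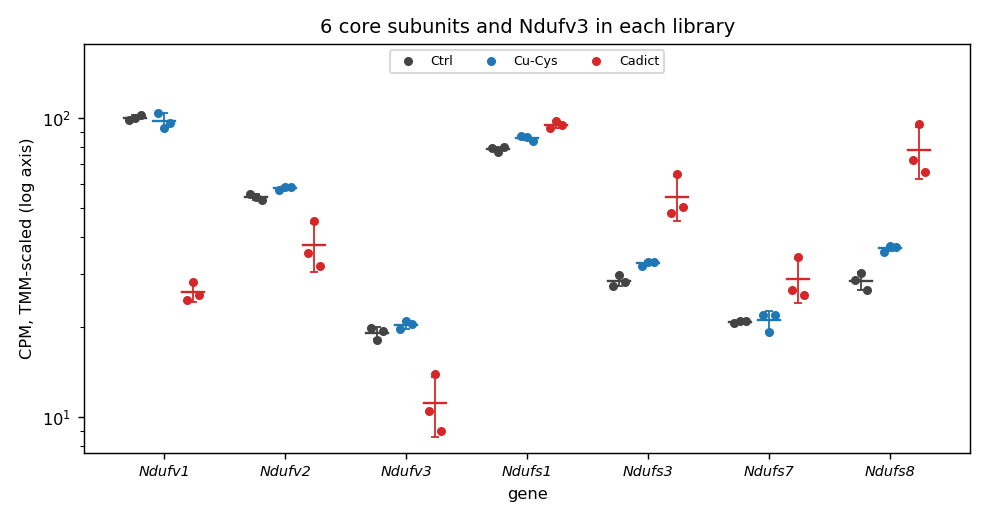
CPM after TMM scaling (y axis, log axis) of 6 core subunits and Ndufv3 in each library, with dots for libraries, a line for the group mean and bars for the SD (n = 3). Cadict libraries lie at 24.7 to 28.2 CPM for Ndufv1 and at 66.2 to 95.3 CPM for Ndufs8, below and above all other libraries. Both directions hold under every scaling tried. For Ndufv1 that is no check, since library totals, FPKM and TPM move the median of all genes down.

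Accessory subunits surround the core in both arms of the enzyme. Of the 20 accessory subunits of the membrane arm, 19 rose and 0 fell with TMM scaling in edgeR's adjusted test (19 and 0 at an unadjusted p of at most 0.05, 20 and 0 in DESeq2), with a median log2 fold change of 1.0 and a range of 0.28 to 1.66. The exception was Ndufa3, named after its values were seen, at 10.8 CPM in Ctrl and 13.1 CPM in Cadict cells (adjusted p = 0.0897), and it was lower with library totals, FPKM and TPM. Of the 9 accessory subunits of the peripheral arm, 7 rose and 1 fell, with a median of 1.14 and a range from -0.78 to 1.56. The one that fell was Ndufv3, and the one that did not pass was Ndufs6, a zinc-binding subunit that was also named after its values were seen. Ndufs6 was at 14.2, 14.6 and 13.8 CPM in Ctrl, at 15.8, 16.1 and 18.4 CPM in Cu-Cys and at 10.4, 16.1 and 11.3 CPM in Cadict libraries. The Cadict libraries overlapped the others only through replicate 2, and without that library its log2 fold change went from -0.17 ± 0.13 (adjusted p = 0.21) to -0.39 ± 0.11 (adjusted p = 0.00166, edgeR).

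Among the genes with the largest changes, Ndufa13 (Entrez 67184), also known as Grim-19, was at 37, 41 and 40 CPM in Ctrl, at 42.6, 43.5 and 44.6 CPM in Cu-Cys and at 114, 144 and 114 CPM in Cadict libraries. Its log2 fold change of 1.66 ± 0.082 (adjusted p = 1.9e-11) was the highest among the subunits. Of its 50-base stretches, 28.5% occur in Gm12389 or Tssk6. Of its annotated exons, 30.0% overlap Tssk6 on the opposite strand, which averaged at most 0.228 CPM in any group. Whether such antisense reads entered the counts is not known. Ndufs4 (Entrez 17993), whose loss is a known cause of Leigh syndrome, was at 21.9, 24.8 and 23.8 CPM in Ctrl, at 25.1, 27.0 and 24.9 CPM in Cu-Cys and at 59.6, 86.7 and 61.7 CPM in Cadict libraries. Its Cadict values lay above all others, with a log2 fold change of 1.56 ± 0.11 (adjusted p = 2.5e-09). Ndufa1 (Entrez 54405), a small membrane-arm subunit, was at 11.9, 12.9 and 12.1 CPM in Ctrl, at 12.8, 16.3 and 15.3 CPM in Cu-Cys and at 37.8, 43.4 and 29.1 CPM in Cadict libraries. Its log2 fold change was 1.58 ± 0.12 (adjusted p = 6.5e-09) and its Cadict libraries lay above the other 6. The membrane-arm subunits Ndufb2 and Ndufb1 had log2 fold changes of 1.53 ± 0.16 and 1.51 ± 0.2, and Ndufb4 one of 0.63 ± 0.12. Of the exons of Ndufb1, 12.7% overlap Cpsf2 on the opposite strand, which averaged 117 CPM in Ctrl cells where Ndufb1 averaged 5.95, so that Ndufb1 is uncertain. For Ndufb2 5.37% overlap Braf or Gm16272 in the same way, and Braf averaged 43.9 CPM in Ctrl cells where Ndufb2 averaged 9.11. Ndufa1 and Ndufb2 each no longer passed in 2 of the 19 alternatives. Ndufa6, which also belongs to the peripheral arm, had a log2 fold change of 1.14 ± 0.092, and Ndufa9, chosen after its values were seen, one of 0.22 ± 0.077 (adjusted p = 0.0148), which no longer passed without Cadict replicate 2. The sign of Ndufb4 and Ndufa9 turned under library totals, FPKM and TPM, and that of Ndufb1 and Ndufa6 with TPM. Ndufab1 (Entrez 70316), the mitochondrial acyl carrier protein, which serves fatty acid synthesis and is bound at both arms of complex I, was at 28.4, 29.0 and 29.9 CPM in Ctrl, at 35.6, 38.9 and 39.0 CPM in Cu-Cys and at 57.2, 62.6 and 49.6 CPM in Cadict libraries. The 3 groups were stepwise apart, and the log2 fold change in Cadict cells was 0.95 ± 0.077 (adjusted p = 9.1e-09), with the sign turned for FPKM and TPM.

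The assembly factors differed among themselves. Ndufaf7 (Entrez 73694), a methyltransferase that acts early in assembly, was at 25.7, 24.2 and 25.5 CPM in Ctrl, at 22.2, 24.3 and 22.2 CPM in Cu-Cys and at 7.9, 7.5 and 7.22 CPM in Cadict libraries. It fell by 1.74 on the log2 scale (SE 0.086, adjusted p = 2.0e-11), with every Cadict library below the other 6. Ndufaf1 (Entrez 69702), which works in the assembly of the membrane arm together with Ecsit, Acad9 and Tmem126b, was at 19.3, 17.0 and 17.9 CPM in Ctrl, at 18.9, 19.1 and 18.2 CPM in Cu-Cys and at 6.37, 6.97 and 5.21 CPM in Cadict libraries. It fell by 1.55 on the log2 scale (SE 0.11, adjusted p = 1.1e-09), again with all Cadict libraries below the rest. Ndufaf3 (Entrez 66706), which acts with Ndufaf4 on the ubiquinone module, was at 2.68, 2.94 and 3.58 CPM in Ctrl, at 2.54, 3.34 and 2.23 CPM in Cu-Cys and at 1.1, 1.39 and 1.01 CPM in Cadict libraries. It fell by 1.39 on the log2 scale (SE 0.25, adjusted p = 7.3e-05), from a low level. Of its exons, 2.64% overlap Impdh2 on the opposite strand, which averaged 275 CPM in Ctrl and 234 CPM in Cadict cells. The part of such reads in the value of Ndufaf3 was not tested. Its partner Ndufaf4 (Entrez 68493) was at 16.7, 16.8 and 15.7 CPM in Ctrl, at 27.8, 26.2 and 23.9 CPM in Cu-Cys and at 12.4, 17.0 and 15.1 CPM in Cadict libraries, so that Cu-Cys libraries were high and Cadict libraries overlapped Ctrl (log2 fold change -0.15 ± 0.1, adjusted p = 0.198).

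Ndufaf2 was the 1 assembly factor that rose. It is a paralog of Ndufa12 and holds that subunit's place in the unfinished complex. Ndufaf2 (Entrez 75597) was at 9.39, 8.48 and 9.68 CPM in Ctrl, at 10.6, 13.3 and 13.6 CPM in Cu-Cys and at 22.7, 37.7 and 21.7 CPM in Cadict libraries, a log2 fold change of 1.57 ± 0.17 (adjusted p = 3.9e-07) that was 1.27 without Cadict replicate 2. Ndufa12 was at 25, 27.7 and 27.3 CPM in Ctrl, at 32.2, 33.0 and 33.2 CPM in Cu-Cys and at 52.9, 78.4 and 50.5 CPM in Cadict libraries, a log2 fold change of 1.18 ± 0.12 (adjusted p = 2.0e-07). Both paralogs were thus higher in Cadict cells with TMM scaling, while with TPM neither passed, and Ndufa12 was at -0.17 (adjusted p = 0.0944, limma). Ndufa12 also did not pass with library totals or with FPKM at a pseudocount of 1, and 17.7% of its 50-base stretches occur in Gm15920. Ndufaf2 remains uncertain, because 64.1% of its 50-base stretches occur in other annotated genes and 65.6% of its exons overlap the antisense gene B230220B15Rik, and the sources do not state whether strand was used in counting. Ndufaf5, which hydroxylates an arginine of Ndufs7, its partner Ndufaf8, and Ndufaf6 had log2 fold changes of 0.18, 0.24 and 0.19 with adjusted p of 0.183, 0.128 and 0.222, and all 3 turned to lower under library totals, FPKM and TPM.

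**Figure D4:**
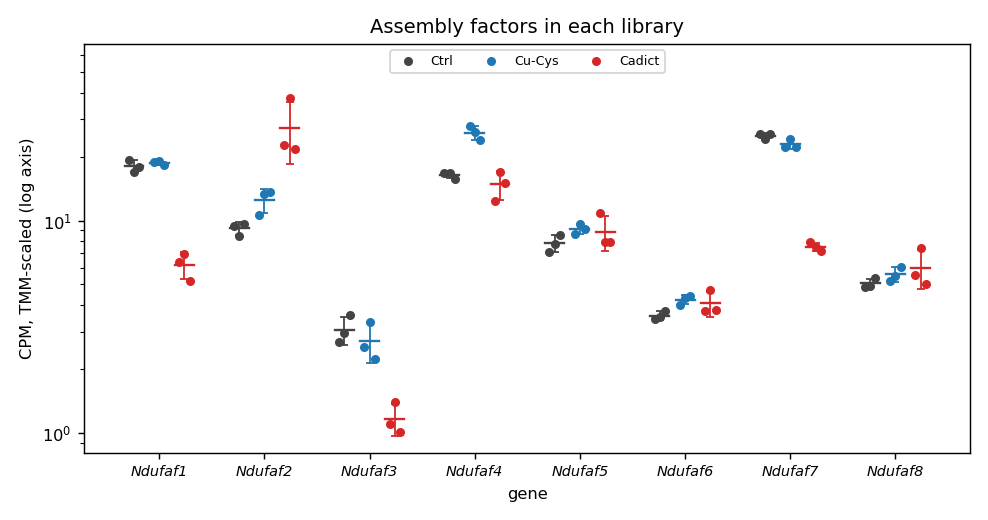
CPM after TMM scaling (y axis, log axis) of the 8 assembly factors in each library, with dots for libraries, a line for the group mean and bars for the SD (n = 3). Ndufaf1, Ndufaf3 and Ndufaf7 lie lower in all Cadict libraries, Ndufaf2 lies higher, and Ndufaf4 is highest in Cu-Cys libraries at 23.9 to 27.8 CPM. Ndufaf1, Ndufaf3 and Ndufaf7 are also lower under every other scaling tried. That is no check on them, since library totals, FPKM and TPM move the median of all genes down.

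Transcript length moved with these changes. The effective length, computed back from the authors' counts and FPKM, had a median of 358 bases over the subunits, 1080 over the assembly factors and 2560 over all genes tested. Among all genes tested, the median log2 fold change in Cadict against Ctrl cells was 1.07 for the 455 genes of up to 500 bases, 0.56 for lengths from 500 to 1000, 0.07 from 1000 to 2000, -0.31 from 2000 to 4000 and -0.43 beyond. The 24 subunits of up to 500 bases had a median of 0.9, below that of all genes of that length, and the 6 from 500 to 1000 had a median of 1.09. Of these 24 subunits 21 were called higher and 1 lower, where 348 and 49 of the 455 genes were. Over the 37 subunits Spearman's rho between length and log2 fold change was -0.05, and over 11548 genes it was -0.22. These are correlations across genes, which are not independent. Ndufv3, of 238 bases, lay below 0 among the short genes, and Ndufv1 and Ndufv2, of 1280 and 1210 bases, lay below the median of their range, as did Ndufaf1, Ndufaf3 and Ndufaf7, of 1050, 1110 and 1940 bases. The part of length in the difference between the classes was not tested.

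**Figure D5:**
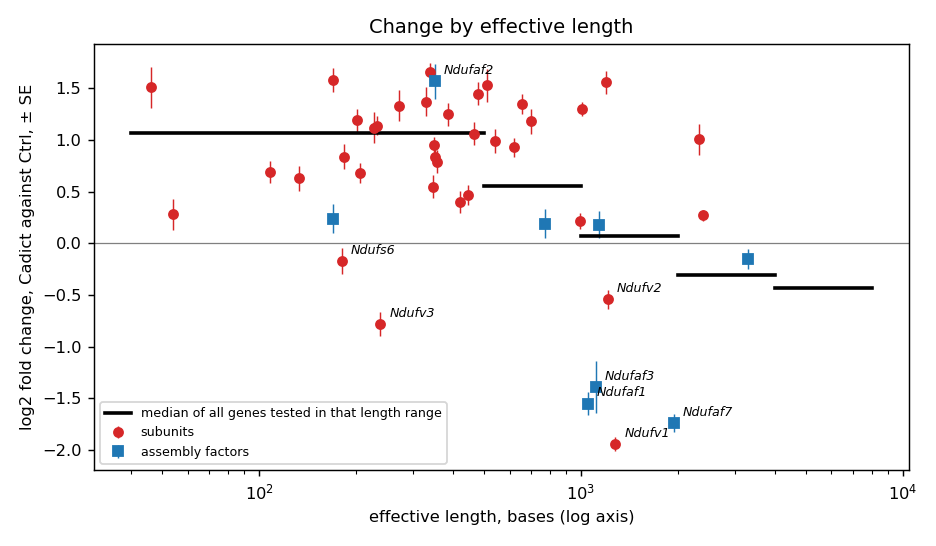
Log2 fold change in Cadict against Ctrl with TMM scaling (y axis, bars show the SE) against effective length in bases (x axis, log axis) for subunits (circles) and assembly factors (squares), with a horizontal line at the median of all genes tested in each length range. The line falls from 1.07 to -0.43, and the 24 subunits of up to 500 bases spread on both sides of it. The named points at -0.54 and lower (Ndufv1, Ndufv2, Ndufv3, Ndufaf1, Ndufaf3, Ndufaf7) lie below it and stay lower under every scaling tried. That kept sign is no check, since library totals, FPKM and TPM move the median of all genes down.

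Levels can be compared between genes only per length, as TPM, which adds up to the same total in each library. The subunits differed widely among themselves, from 15.4 TPM for Ndufa11 to 517 TPM for Ndufa7 in Ctrl replicate 1, around a median of 166 TPM. These 2 genes were also the lowest and highest in every other library. The low TPM of Ndufa11 is uncertain, because it rests on an effective length of 2330 bases. Its annotated transcripts held only 1150 stretches of 50 bases, and the reason for this difference was not tested. By CPM, Ndufa11 was not the lowest subunit in Ctrl cells, at a mean of 17.4 where Ndufb1 averaged 5.95. The SD of log2 TPM over the subunits was 1.0 to 1.03 in Ctrl, 1.01 to 1.02 in Cu-Cys and 1.14 to 1.16 in Cadict libraries, so that the subunits lay further apart after Cadict. In Ctrl cells Ndufv1 and Ndufv3 were at 168 ± 1.49 and 167 ± 6.64 TPM (SD, n = 3), close to the subunit median, and Ndufv2 was at 96.2 ± 3.6 TPM. In Cadict cells they were at 17.6 ± 0.878, 42.5 ± 5.18 and 26.5 ± 2.22 TPM, where the subunit medians were 119 to 141 TPM. Ndufs1 went from 69.7 ± 2.26 to 34.4 ± 2.83 TPM. The median assembly factor lay at 19.9 to 21.3 TPM in Ctrl and at 4.55 to 4.89 TPM in Cadict libraries. Values of the shortest genes are less certain on this scale, since the effective length of Ndufb1 was only 46.0 bases.

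Cu-Cys alone changed few members. Of the 37 subunits, 5 rose and 0 fell against Ctrl, where 22.6% of all genes tested rose and 22.4% fell, and the median log2 fold change was 0.14. At an unadjusted p of at most 0.05 in edgeR 12 rose and 0 fell, and DESeq2's Wald test likewise called 12 higher and 0 lower. The 5 were Ndufab1 (0.38 ± 0.076, adjusted p = 9.8e-04), Ndufs8 (0.36 ± 0.11, adjusted p = 0.013), Ndufb1 (0.58 ± 0.21, adjusted p = 0.0311), Ndufs1 (0.12 ± 0.047, adjusted p = 0.0452) and, named after its values were seen, Ndufa8 (0.34 ± 0.11, adjusted p = 0.02). The flavoprotein subunits Ndufv1, Ndufv2 and Ndufv3 had log2 fold changes of -0.039 ± 0.056, 0.1 ± 0.082 and 0.09 ± 0.095, none of which passed. Ndufaf4 was the 1 assembly factor that rose, by 0.66 ± 0.088 on the log2 scale (adjusted p = 3.3e-05), and it lay above Ctrl in all 3 Cu-Cys libraries. Ndufaf2, at 0.44 ± 0.18 (adjusted p = 0.0539), just missed the threshold, and among members averaging at least 10 CPM the lowest values were -0.13 ± 0.065 for Ndufaf7, -0.05 ± 0.12 for Ndufb4 and -0.045 ± 0.094 for Ndufa6. The count of subunits that rose was unstable, at 18 without Cadict replicate 2 and 11 without Cadict replicate 3, since all groups share one estimate of the spread, and at 2 without Ctrl replicate 3.

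Cadict against Cu-Cys, which shares its Cadict libraries with the comparison above, gave 30 subunits higher and 4 lower, where 40.3% of all genes tested were higher and 45.6% lower. With library totals the subunit counts were 10 higher and 15 lower, where 2062 and 8598 of all 11949 genes tested were. The median over the subunits was 0.73 and over the assembly factors -0.43, of which 1 was higher and 4 lower. The 4 subunits that fell were Ndufv1 (-1.9 ± 0.067, adjusted p = 4.7e-13), Ndufv2 (-0.63 ± 0.09, adjusted p = 7.9e-06), Ndufv3 (-0.87 ± 0.11, adjusted p = 3.2e-06) and Ndufs6 (-0.42 ± 0.13, adjusted p = 0.00628). Ndufaf7 and Ndufaf1 each fell by 1.6 on the log2 scale, Ndufaf3 fell by 1.21 and Ndufaf4, which had risen with Cu-Cys, fell by 0.81 (SE 0.099, adjusted p = 1.5e-06). The highest values were those of Ndufa13, Ndufs4 and Ndufb2, at 1.51 ± 0.081, 1.43 ± 0.11 and 1.34 ± 0.16.

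The members that belong to neither class were few. Ndufa4 was at 42.5, 49.6 and 48.4 CPM in Ctrl, at 48.8, 57.6 and 53.1 CPM in Cu-Cys and at 86.6, 106 and 81.4 CPM in Cadict libraries, a log2 fold change of 0.96 ± 0.093 (adjusted p = 7.4e-08) in Cadict cells that turned with FPKM and TPM. Its paralog Ndufa4l2, a hypoxia-responsive gene in many cells, was at 0.0433 to 0.218 CPM in Ctrl and at most 0.0872 CPM in the other libraries, near the limit that a count of 0 allows. Ndufb4c had a log2 fold change of 1.05 ± 0.26 (adjusted p = 0.00151), but all of its 50-base stretches occur in other genes, Ndufb4 among them, so that its counts may belong to that gene.

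Other assembly factors of complex I carry different symbols. Of 13 listed, 12 were tested, and 3 rose and 7 fell in Cadict against Ctrl cells, where 40.6% and 47.1% of all genes tested did. Their median was -0.6. With library totals 0 rose and 10 fell, where 2161 and 8730 of all 11949 genes tested did. Timmdc1 and Foxred1 were called neither way with TMM scaling, at log2 fold changes of -0.06 ± 0.097 and 0.1 ± 0.089. Ecsit, Tmem126b and Acad9, partners of Ndufaf1, had log2 fold changes of -1.67 ± 0.16, -1.12 ± 0.14 and -0.49 ± 0.061, and Tmem186, which joins the same complex, had -1.89 ± 0.096. All 4 were also lower with library totals, FPKM and TPM, which move the median of all genes down, so that this is no check. Tmem70, which also serves ATP synthase, Sfxn4 and Nubpl, which delivers iron-sulfur clusters, rose by 0.84 ± 0.067, 0.78 ± 0.14 and 0.46 ± 0.096 with TMM scaling and were below 0 under library totals, FPKM and TPM. In Cu-Cys against Ctrl cells Ecsit (0.33 ± 0.11) and Dmac2 (0.26 ± 0.095) rose while Sfxn4 (-0.51 ± 0.14) and Nubpl (-0.24 ± 0.093) fell.

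Subunits of the other respiratory complexes are given for reference, with no test against those of complex I. With TMM scaling 38 of 40 nuclear subunits of complexes II to V rose in Cadict against Ctrl cells and 2 fell, where 40.6% and 47.1% of all genes tested did, with a median of 1.05. With library totals, in contrast, 17 rose and 10 fell, where 2161 and 8730 of all 11949 genes tested did. The 2 that fell with TMM scaling were Cyc1, the cytochrome of complex III (-1.24 ± 0.087), and Sdhc, a membrane anchor of complex II (-0.46 ± 0.063). Both were lower under every scaling tried, which is no check, since library totals, FPKM and TPM move the median of all genes down. By complex the medians were 0.52 for the 4 genes of complex II, 0.84 for the 9 of complex III, 1.51 for the 11 of complex IV, Ndufa4 among them, and 1.25 for the 16 of complex V, and those of complexes II and III turned with library totals. Cox4i1 and Cox5a, subunits of cytochrome c oxidase, and Atp5b, the catalytic subunit of ATP synthase, had log2 fold changes of 1.95 ± 0.11, 1.88 ± 0.084 and 1.54 ± 0.052 and were higher under every scaling tried. In Cu-Cys cells 15 of the 40 rose and 0 fell by edgeR's adjusted test, where 22.6% and 22.4% of all genes tested did, with 17 and 0 at an unadjusted p of at most 0.05 and 28 and 0 in DESeq2.

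Of 12 listed genes that regulate nuclear mitochondrial genes or mitochondrial transcription, 11 were tested. In Cadict against Ctrl cells 5 rose and 5 fell with TMM scaling, near the shares of 40.6% and 47.1% among all genes tested. With library totals 3 rose and 6 fell, where 2161 and 8730 of all 11949 genes tested did. Gabpa and Gabpb1, the subunits of the ETS factor GABP, rose by 1.14 ± 0.079 and 1.25 ± 0.058 and Yy1 by 0.95 ± 0.044, although with library totals these values were 0.19, 0.3 and -0.01. Nrf1 fell by 0.37 on the log2 scale (SE 0.066). Polrmt, the mitochondrial RNA polymerase, and the coactivators Ppargc1b and Pprc1 had log2 fold changes of -2.03 ± 0.1, -1.98 ± 0.18 and -1.12 ± 0.062. Of the paralogs Tfb1m, which methylates mitochondrial ribosomal RNA, and Tfb2m, which opens mitochondrial promoters, the first fell by 1.92 on the log2 scale (SE 0.12) and the second rose by 1.72 ± 0.075. Both directions held under every scaling tried. For Tfb1m that is no check, since library totals, FPKM and TPM move the median of all genes down.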

How the data were processed

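RNA-seq libraries of MC38 cells (3 each of Ctrl, Cu-Cys and Cadict) were analysed from 1 deposited table of 16509 genes. Per the submitters' processing notes, HISAT2 2.1.0, Bowtie2 2.3.4.3 and RSEM 1.3.1 were used with the builds GRCh38.p13 and GRCm39, and gene symbols are those of the mouse. The authors deposited expected counts, estimated per gene and library, and these were rounded to whole numbers. The authors also deposited FPKM and TPM values, which scale those counts by length and depth and served for alternatives and for levels between genes. Another 9 columns, 1 per sample, of counts normalized by size factors, were not used. Group averages that the authors gave in the same table were not used either. The authors named DESeq and a 2-fold change with an adjusted p of at most 0.001.

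Columns named CTL were read as Ctrl, CC as the initials of Cu-Cys, and CCGE as Cu-Cys with glucose oxidase and GE11, which is Cadict. The labels and the study's text differ on the control (DMSO or PBS), the RNA extraction and the sequencing platform, and strand use in counting is not given in the sources used here. Genes were filtered with filterByExpr, leaving 11949, scaled by TMM and tested with edgeR 4.0.16 (quasi-likelihood test, all 9 libraries in 1 fit, R 4.3.3) with Benjamini-Hochberg adjustment. limma 3.58.1 on log2 values with pseudocounts of 1 and 0.1 and DESeq2 1.42.0 served as alternatives, beside other filters, library totals, a replicate block and leaving out each library. The steps were tested on simulated data in which few genes changed, as many up as down. That test does not bear on the choice of scaling. CPM are TMM-scaled. With 3 libraries against 3, an exact permutation test cannot go below 0.1, so none is given.

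The members and lists were chosen with earlier results of these data known. Named genes were a fixed list of core subunits, assembly factors and paralogs, and the 3 highest and 3 lowest log2 fold changes per comparison among members averaging at least 10 CPM. Ndufv3, Ndufs6, Ndufa3, Ndufa9, Ndufa8 and Ndufb4c were added after their values were seen, and the flavoprotein subunits were grouped after theirs were. Some genes of these lists and of the markers are not reported here. Promoters are from RefSeq on GRCm38.p6, another build than that of the files, and were matched by symbol.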

Additional observations from a re-analysis of the deposited data

How the results depend on the processing

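Counts that depended on the scaling were those of Cadict cells. Against Ctrl, 12 subunits rose and 13 fell with library totals, 8 and 13 with log2 FPKM, and 2 and 25 with log2 TPM at either pseudocount, and 7 assembly factors fell with each of these. Assembly factors that rose numbered 3 with DESeq2 size factors, 0 with TPM and 1 to 2 when a library was left out. Against Cu-Cys, 10 subunits rose and 15 fell with library totals, 9 and 16 with FPKM, and 2 and 21 with TPM, while 0 assembly factors rose and 7 fell with each of these, and the difference between the class medians was 0.84 with FPKM and 0.89 with TPM at a pseudocount of 1. Among all 11949 genes tested, 8730 fell against Ctrl with library totals, and 8703 with FPKM and 9542 with TPM at a pseudocount of 1. Against Cu-Cys these numbers were 8598, 8532 and 9271. Of all calls in Cadict against Ctrl cells 46.3% were higher with TMM, 49.9% with DESeq2 size factors, 19.8% with library totals, 19.6% with FPKM and 13% with TPM. In Cu-Cys against Ctrl cells these shares were 50.2%, 56.4%, 34.9%, 33.9% and 20.3%. There 9 subunits rose with DESeq2 size factors, 12 in DESeq2's Wald test, 2 and 1 with FPKM at pseudocounts of 1 and 0.1, 1 with TPM, and 2 to 18 when a library was left out, and 4 and 3 subunits fell with TPM at the 2 pseudocounts. Assembly factors that rose numbered 2 with DESeq2 size factors, without a filter, in the Wald test and with the replicate block, and 1 to 2 when a library was left out, and 1 fell with library totals, with FPKM and with TPM at a pseudocount of 1. The difference of class medians there was -0.1 to -0.01 when a library was left out. The cause of these shifts was not tested. Log2 fold changes in Cadict against Ctrl cells that turned below 0 were, with library totals, Ndufa3 -0.68, Ndufa9 -0.74, Ndufaf5 -0.77, Ndufaf6 -0.76, Ndufaf8 -0.71, Ndufb4 -0.32, Ndufs1 -0.68, Ndufs3 -0.026 and Ndufs7 -0.49. With log2 FPKM and a pseudocount of 1 they were Ndufa3 -0.9, Ndufa4 -0.09, Ndufa9 -0.75, Ndufab1 -0.0015, Ndufaf5 -0.53, Ndufaf6 -0.66, Ndufaf8 -0.8, Ndufb4 -0.45, Ndufb4c -0.06, Ndufs1 -0.66, Ndufs3 -0.06 and Ndufs7 -0.57. With log2 FPKM and a pseudocount of 0.1 they were Ndufa3 -0.9, Ndufa4 -0.09, Ndufa9 -0.76, Ndufab1 -0.0015, Ndufaf5 -0.61, Ndufaf6 -0.79, Ndufaf8 -0.82, Ndufb4 -0.45, Ndufb4c -0.06, Ndufs1 -0.67, Ndufs3 -0.07 and Ndufs7 -0.58. With log2 TPM and a pseudocount of 1 they were Ndufa12 -0.17, Ndufa3 -1.24, Ndufa4 -0.44, Ndufa6 -0.24, Ndufa9 -1.1, Ndufab1 -0.34, Ndufaf5 -0.87, Ndufaf6 -1.0, Ndufaf8 -1.14, Ndufb1 -0.0054, Ndufb4 -0.79, Ndufb4c -0.4, Ndufs1 -1.0, Ndufs3 -0.41 and Ndufs7 -0.92. With log2 TPM and a pseudocount of 0.1 they were Ndufa12 -0.17, Ndufa3 -1.25, Ndufa4 -0.44, Ndufa6 -0.24, Ndufa9 -1.11, Ndufab1 -0.35, Ndufaf5 -0.95, Ndufaf6 -1.13, Ndufaf8 -1.17, Ndufb1 -0.0054, Ndufb4 -0.79, Ndufb4c -0.4, Ndufs1 -1.02, Ndufs3 -0.41 and Ndufs7 -0.93. In Cu-Cys against Ctrl cells the values that turned were Ndufa6 0.022 (without Cu-Cys replicate 1), Ndufb4 0.0043 (without Ctrl replicate 3), Ndufb4 0.032 (without Cu-Cys replicate 3), Ndufs1 -0.02, Ndufv2 -0.049 and Ndufv3 -0.23 (log2 TPM with a pseudocount of 1), Ndufs1 -0.02, Ndufv2 -0.049 and Ndufv3 -0.23 (log2 TPM with a pseudocount of 0.1), Ndufv3 -0.16 (log2 FPKM with a pseudocount of 1), Ndufv3 -0.16 (log2 FPKM with a pseudocount of 0.1). With a library left out Ndufa6 there ranged from -0.12 to 0.022. With a library left out Ndufb4 there ranged from -0.17 to 0.032. Over all 1007 values of named genes under alternatives, 842 kept direction and side of the threshold, 57 lost and 34 gained significance, and 74 turned. Of the 477 with a library left out, 452 kept both. Libraries with the same replicate number did not deviate together (correlations of -0.197 to 0.167 over 8551 genes). The labels number the replicates but do not say that equal numbers belong together, so the replicate block is only an alternative. With the block Ndufaf2 passed in Cu-Cys against Ctrl cells (log2 fold change 0.44), Ndufs1 no longer did, and no other call of a named gene changed. Members near the limit of a count of 0, such as Ndufa4l2, cannot be compared at this depth.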

Other observations

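Mitochondrial ribosomal proteins, which translate the core subunits of complex I that mitochondrial DNA encodes, were higher in Cu-Cys cells. Of the 78 genes tested, 46 rose and 0 fell against Ctrl by edgeR's adjusted test, with a median log2 fold change of 0.26, where 22.6% of all genes tested rose. At an unadjusted p of at most 0.05 the counts were 51 and 1, and in DESeq2 51 and 0. With library totals 28 rose and 1 fell, where 1846 and 3448 of all 11949 genes tested did. With TPM at a pseudocount of 1, 14 rose and 1 fell, where 897 and 3516 of all genes tested did. In Cadict against Ctrl cells 50 rose and 16 fell with TMM scaling, where 40.6% and 47.1% of all genes tested did, with a median of 0.54. With library totals, in contrast, 20 rose and 47 fell, where 2161 and 8730 of all 11949 genes tested did. The genes at the ends of the range with TMM were Mrps6 (3.18 ± 0.09, adjusted p = 1.9e-14 in edgeR) and Mrps18a (2.49 ± 0.09), and Mrpl44 (-2.34 ± 0.13, adjusted p = 5.6e-11 in edgeR) and Mrpl55 (-1.86 ± 0.14), which kept their direction under every scaling tried. For Mrpl44 and Mrpl55 that is no check, since library totals, FPKM and TPM move the median of all genes down. These 4 genes were named after their values were seen.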
